A study of Ramazzottius varieornatus with 18 samples.

Results

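The comparison described here set the 3 libraries of Juvenile 7d against the 3 of Juvenile 6d in the tardigrade Ramazzottius varieornatus. These 6 libraries, of 18 in the series, were chosen by their labelled day and replicate, and all 14532 transcripts of the reference were considered. Of these, 9768 passed the filter on low counts and were tested. The question was how large the step between the last 2 days of the series was beside the variation between libraries of the same day.

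The series followed gene expression after hatching in the strain YOKOZUNA-1, with 3 libraries on each day from Juvenile 2d to Juvenile 7d. Both days compared here were whole bodies of juveniles with no treatment named, aged day 6 or day 7 of the juvenile stage, from cultures fed Chlorella vulgaris on agar plates. The methods text gives days 3 to 7 for this collection, whereas the labels run from day 2, and the labelled days were used. The labels do not say whether replicates came from separate cultures or how many animals a library held, so the p-values measure the spread between these samples, part of which may be technical.

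Messenger RNA was amplified by the SMARTer method before sequencing, which makes full-length cDNA from very small inputs. The reads carry no molecular identifiers, so copies of one molecule made by PCR cannot be recognised. Quantification by the authors used kallisto, which assigns reads to transcripts without a full alignment and gives estimated counts and TPM (a transcript level scaled by transcript length and library total). Levels below are TPM, and differences are edgeR log2 fold changes of Juvenile 7d against 6d, where a value above 0 is higher at Juvenile 7d.

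Tardigrades grow by molting, as arthropods do. In insects a molt is driven by a pulse of ecdysteroid hormone, which is made by cytochrome P450 enzymes, acts through a receptor pair of EcR and USP/RXR, and sets off a timed cascade of nuclear receptors and transcription factors. R. varieornatus is also known for its tolerance of drying, and it carries abundant heat-soluble proteins of the cytosol (CAHS), of the secretory route (SAHS) and of mitochondria (MAHS), the DNA-associated protein Dsup and the mitochondrial LEA protein LEAM.

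The 6 libraries differed in depth and in make-up. The totals of the estimated counts were 5095736, 3212245 and 3059567 for replicates 1, 2 and 3 of Juvenile 6d, and 3739242, 3777899 and 1250604 for those of Juvenile 7d. Juvenile 7d replicate 3 was thus the shallowest, and a count of 0 there allows up to 2.40 CPM (the count divided by the library total and scaled up), against 0.589 CPM in the deepest library. These limits cover counting error only. The 100 most abundant transcripts took 45.9% of the TPM in Juvenile 6d replicate 1 and between 32.3% and 37.0% in the other 5 libraries. The TMM factor, edgeR's correction for make-up, was 0.751 in Juvenile 6d replicate 1 and between 1.03 and 1.09 in the other 5. TPM carries no such factor. The order of libraries in TPM can therefore differ from that behind the log2 fold changes, and a small log2 fold change can differ in sign from the TPM means. Between 11007 and 11739 transcripts had at least 1 count.

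Variation between libraries of the same day was wider on these 2 days than on any earlier day. The median SD of log2(TPM + 1) over the 3 libraries of a day was 0.154 at Juvenile 2d, 0.178 at 3d, 0.1996 at 4d and 0.207 at 5d, and then 0.519 at Juvenile 6d and 0.348 at Juvenile 7d. At Juvenile 6d, 16.7% of 10573 expressed transcripts had an SD above 1, and at Juvenile 7d 10.7% did, against at most 3.98% on the earlier days. Expressed means here a mean above 1 TPM over the 18 libraries.

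Libraries of different days were often more alike than libraries of the same day. Pearson's r of log2(TPM + 1), across transcripts, was 0.905 between replicates 1 and 2 of Juvenile 6d, 0.841 between 1 and 3, and 0.915 between 2 and 3. Within Juvenile 7d, replicates 1 and 2 reached 0.966, but replicate 3 had 0.874 with the first and 0.867 with the second. Across the days, Juvenile 6d replicate 3 had 0.943 and 0.940 with Juvenile 7d replicates 1 and 2, more than with either library of its own day. Juvenile 6d replicate 2 had 0.926 with Juvenile 7d replicate 3, also more than with either library of its own day. These correlations are across transcripts, which are not independent replicates, and they are given as descriptions.

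In a single value, the step between the days did not exceed the spread within them. The distance of a pair of libraries was taken as the root mean square difference of log2(TPM + 1). The mean over the 9 pairs between the days was 1.04, and the mean over the 6 pairs within a day was 1.07, a difference of -0.04 (exact two-sided permutation test over the 6 libraries, p = 0.7, with 20 splits and 0.1 as the smallest p they allow). The same difference was 0.58 for Juvenile 3d against 2d, 0.39 for 4d against 3d, 0.56 for 5d against 4d and 0.19 for 6d against 5d, each at the smallest p of 0.1 in the exact permutation test. The value turned to 0.11 when Juvenile 6d replicate 3 was left out. It was also 0.11 when Juvenile 6d replicate 1 and Juvenile 7d replicate 3 were both left out, an alternative chosen after the data were seen (exact permutation p = 0.33, the smallest that its 6 splits allow).

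**Figure D1:**
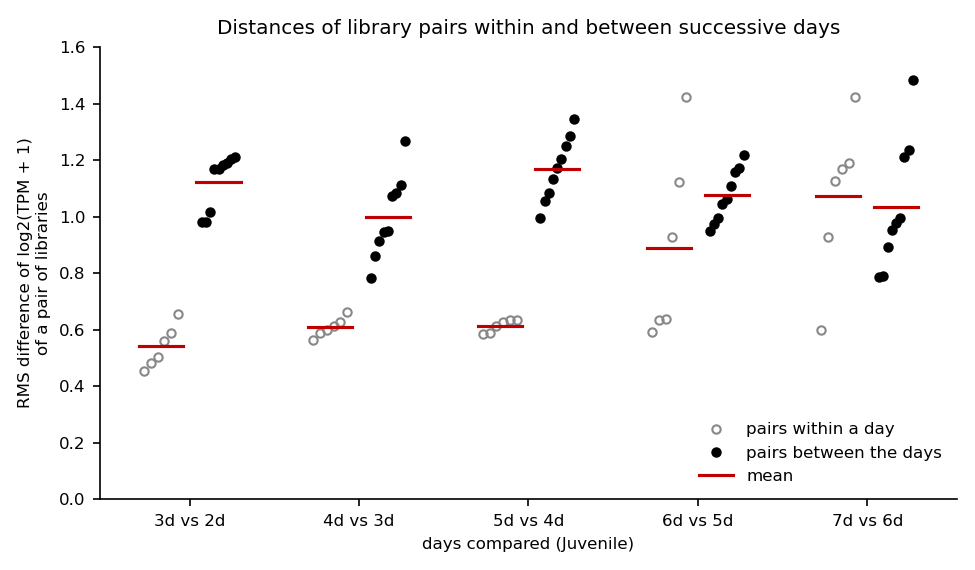
Root mean square difference of log2(TPM + 1) for each pair of libraries (points), for the 5 steps between successive days, with open points for pairs within a day, filled points for pairs between the days, and a red line at each mean. For Juvenile 7d against 6d the ranges overlap, from 0.786 to 1.48 between the days and from 0.599 to 1.42 within a day, with means of 1.04 and 1.07, whereas the filled points lie above the open ones at the 3 steps from Juvenile 2d to 5d.

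Set against the daily means of Juvenile 2d to 5d, the replicates of a day lay closest to different days. Juvenile 6d replicate 1 had its highest correlation with Juvenile 2d (r = 0.937), replicate 2 with Juvenile 5d (0.920) and replicate 3 with Juvenile 3d (0.893). Juvenile 7d replicates 1 and 2 were both closest to Juvenile 3d (0.937 and 0.944), and replicate 3 was closest to Juvenile 5d (0.876). For comparison, each of the 12 libraries of Juvenile 2d to 5d had an r of at least 0.969 with the mean of the other 2 libraries of its own day and of at most 0.939 with any other of these days. No p-value was calculated for these correlations. The labelled ages could not be checked against any other source, so each value here compares libraries as labelled Juvenile 6d and Juvenile 7d, and the part of age in these resemblances was not tested.

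**Figure D2:**
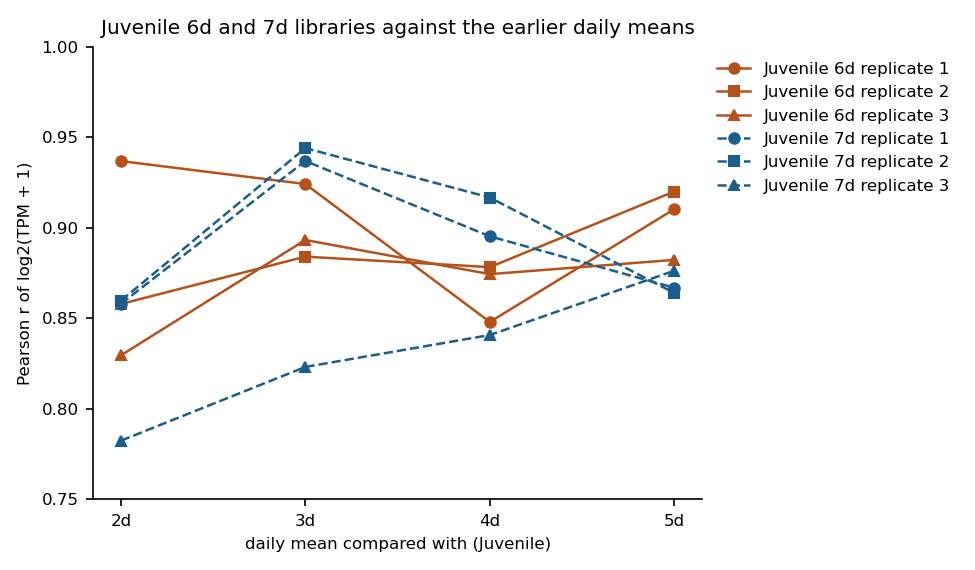
Pearson's r of log2(TPM + 1), across 10573 transcripts, between each library of Juvenile 6d (solid lines) or Juvenile 7d (dashed lines) and the mean of each earlier day (horizontal axis). Juvenile 6d replicate 1 starts at 0.937 with Juvenile 2d, whereas Juvenile 7d replicates 1 and 2 are highest at Juvenile 3d and Juvenile 7d replicate 3 rises to 0.876 at Juvenile 5d.

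The libraries that stood apart did so in many transcripts. In Juvenile 6d replicate 1, 98 of 10573 transcripts lay at least 4-fold above both other libraries of the day, on the scale of TPM + 1, and 410 lay as far below. Among the means of Juvenile 2d to 5d, that of Juvenile 2d was nearest for 32 of the 98 (32.7%). For the 410 it was nearest for 216 (52.7%). In Juvenile 7d replicate 3, 260 lay above and 279 below. The counts were smaller for Juvenile 6d replicate 2 (85 above, 29 below) and replicate 3 (201 above, 100 below) and for Juvenile 7d replicate 1 (32 above, 69 below) and replicate 2 (32 above, 62 below). Results that rest on Juvenile 6d replicate 1 or Juvenile 7d replicate 3 are therefore also given without them.

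No transcript was called between the days. At a Benjamini-Hochberg adjusted p of up to 0.05, edgeR's quasi-likelihood test called 0 of 9768 transcripts, or 0%, with a lowest adjusted p of 0.9996. At an unadjusted p under 0.05 there were 186 transcripts (1.90%), of which 43 were higher and 143 lower at Juvenile 7d. DESeq2 called 1 transcript, and limma called 0 both on log2(TPM + 1) and on counts with a quality weight for each library. In bulk libraries such as these, fewer cells of a type and less RNA per cell cannot be told apart. The biological coefficient of variation was 47.3%.

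The earlier steps, tested in the same way with the 6 libraries of each pair of days, gave 4630 of 9477 transcripts (48.9%) for Juvenile 3d against 2d, 3006 of 9841 (30.5%) for 4d against 3d and 3831 of 9942 (38.5%) for 5d against 4d. For Juvenile 6d against 5d only 10 of 9805 (0.102%) were called. The differences between these steps were not tested. The share of the variance of log2(TPM + 1) that lay between the 2 days was 72.9%, 60.8%, 69.1% and 32.8% for these 4 steps, and 16.1% for Juvenile 7d against 6d. With 3 libraries a day such a share lies well above 0 even where day has no effect. The 16.1% is therefore not the part of the variance due to day.

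What these libraries could exclude differed between transcripts. The median size of the log2 fold change was 0.26, and the median standard error was 0.37. For 3691 transcripts (37.8%) the 95% interval lay within a 2-fold change in either direction, and for 8087 (82.8%) it lay within 4-fold. A fold change of more than 2 was estimated for 646 transcripts (6.61%), 225 higher and 421 lower at Juvenile 7d, none of them called by edgeR. No transcript at 0 in the 3 libraries of one day had at least 10 counts in each of the other day.

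By the plain order of the TPM values, 284 of the 9768 tested transcripts (2.91%) had all 3 libraries of Juvenile 7d above all 3 of Juvenile 6d, and 280 (2.87%) had them below. Without Juvenile 6d replicate 1 and Juvenile 7d replicate 3, the spread narrowed to a biological coefficient of variation of 29.0% and 1590 transcripts had an unadjusted p under 0.05, but edgeR still called 0, with a lowest adjusted p of 0.11.

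The study's lists hold 113 transcripts, of which 102 were tested and 0 were called, beside 0% of all transcripts. Of the 102, 2 (1.96%) had non-overlapping libraries higher at Juvenile 7d, beside 2.91% of all transcripts, and 9 (8.82%) had them lower, beside 2.87%. In 8 of these 9, Juvenile 6d replicate 1 was the highest of the 6 libraries. Juvenile 6d replicate 1 and Juvenile 7d replicate 3 were then left out, an alternative chosen after the data were seen. The 95% interval lay off 0 for 11 of the 39 list members described one by one (5 above, 6 below). By the same criterion, an unadjusted edgeR p under 0.05, it did so for 1590 of all 9822 transcripts tested (16.2%). The lowest edgeR adjusted p among the 39 was 0.12, so the count supports nothing about the lists. The lists were shown by the study on these same libraries.

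**Figure D3:**
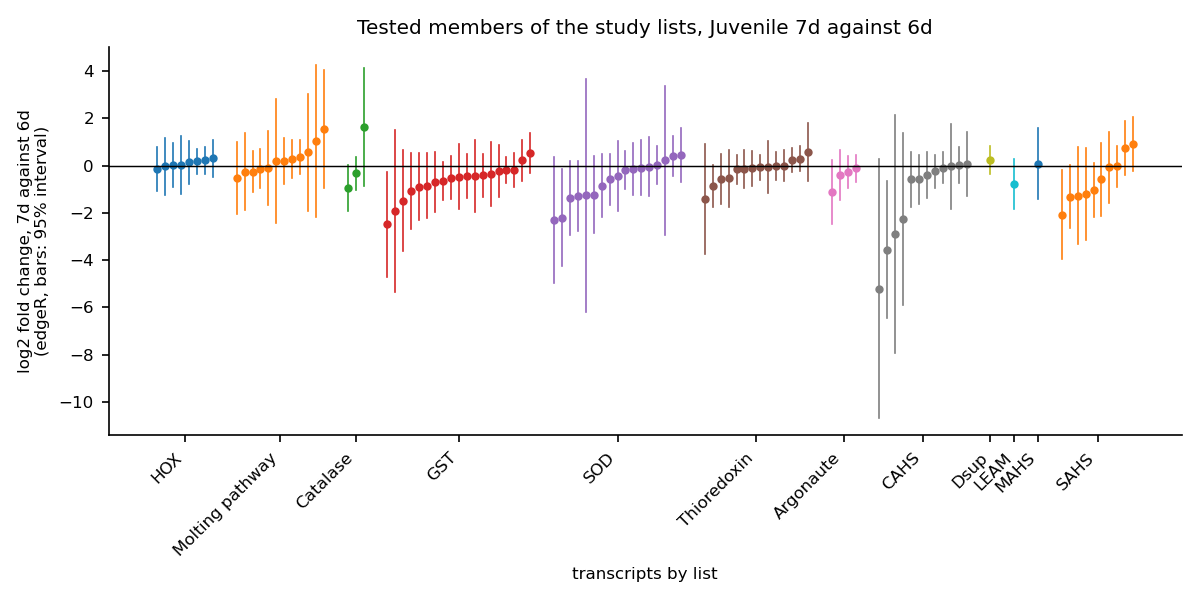
Log2 fold change of Juvenile 7d against 6d (points) with its 95% interval (bars) from edgeR for the 102 tested transcripts of the study's lists, ordered by size within each list. The interval spans 0 for all but 4 transcripts, each of which lies below 0, and the widest intervals belong to CAHS, SOD and GST members.

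All 12 molting pathway transcripts were tested and 0 were called. Their median log2 fold change was 0.21, beside -0.01 over all transcripts tested, with 7 above 0 and 5 below, and their libraries overlapped in every case. The median turned to -0.15 without Juvenile 6d replicate 1 and to -0.08 with library quality weights, and it was 0.02 without Juvenile 7d replicate 3. The variation lay within the days: 7 of the 12 spanned more than 4-fold between the libraries of Juvenile 6d. In TPM, Juvenile 6d replicate 1 was the lowest of the 6 libraries for 10 of the 12. The summed TPM of the list was 128, 783 and 1045 in replicates 1, 2 and 3 of Juvenile 6d and 646, 702 and 1039 in those of Juvenile 7d.

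The enzymes that make and remove the hormone came first in this list. sad (g2400.t1), the insect P450 of a late step in ecdysone synthesis, was at 16.6, 21.8 and 51.9 TPM in replicates 1 to 3 of Juvenile 6d and at 43.5, 40.1 and 23.9 TPM in those of Juvenile 7d, with a log2 fold change of 0.21 and a 95% interval from -0.77 to 1.19. CYP18A1 (g13718.t1), which inactivates ecdysteroids in insects, was at 11.99, 419 and 346 TPM at Juvenile 6d and at 133, 130 and 606 TPM at Juvenile 7d. Its 6d values enclosed all but the highest 7d value, and the log2 fold change was 0.20, with an interval from -2.42 to 2.82. Its log2 fold change without Juvenile 6d replicate 1 and Juvenile 7d replicate 3, left out together after the data were seen, was -1.44. The interval ran from -1.97 to -0.90, with an edgeR adjusted p of 0.12, so the sign of the estimate depended on these 2 libraries.

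The receptor transcripts had overlapping libraries and wide intervals. The first EcR transcript (g12979.t1), a subunit of the ecdysone receptor, was at 29.3, 71.9 and 106 TPM at Juvenile 6d and at 63.0, 71.0 and 60.7 TPM at Juvenile 7d, all 3 of them inside the range of Juvenile 6d. The second EcR transcript (g8354.t1) was at 12.9, 113 and 47.3 TPM and then at 26.5, 42.6 and 78.1 TPM. Of the partner USP/RXR, g11953.t1 was at 20.5, 59.9 and 81.6 TPM and then at 43.6, 44.1 and 50.2 TPM. The 2 days overlapped for all 3 of these transcripts, and their log2 fold changes lay between -0.25 and -0.12, with an interval from -1.88 to 1.38 for g8354.t1. When Juvenile 6d replicate 1 and Juvenile 7d replicate 3 were left out, g8354.t1 was at -1.14 and g11953.t1 at -0.58 on the log2 scale, the second with an interval from -1.06 to -0.10 and an edgeR adjusted p of 0.26. The other USP/RXR transcript, g11953.t2, shares its gene with g11953.t1, and the estimated counts of both were not whole numbers, which shows that reads were divided between similar sequences. Its log2 fold change was -0.52, with an interval from -2.05 to 1.00.

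Of the responding factors, HR3 (g6536.t1), a nuclear receptor that in insects links the hormone pulse to later genes, had the widest span. It was at 3.41, 9.76 and 254 TPM at Juvenile 6d and at 196, 221 and 89.3 TPM at Juvenile 7d. Juvenile 6d replicate 3 stood with Juvenile 7d replicates 1 and 2, a 74.5-fold range within Juvenile 6d. The mean of HR3 was 1.43 ± 0.19 TPM at Juvenile 2d, 94.9 ± 83.3 at 3d, 583 ± 125 at 4d and 68.7 ± 54.1 at 5d (SD, n = 3). Its log2 fold change was 1.05, with an interval from -2.19 to 4.28. When 1 library was left out the estimate lay between 0.50 (replicate 1 of Juvenile 6d dropped) and 4.55 (replicate 3 of that day dropped).

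E78 (g11712.t1), a nuclear receptor of the early response in insects, was at 9.54, 2.16 and 56.8 TPM at Juvenile 6d and at 100, 69.0 and 26.7 TPM at Juvenile 7d. Juvenile 6d replicate 3 again lay among the libraries of Juvenile 7d, and the log2 fold change was 1.54, with an interval from -0.96 to 4.05. It was 3.04 without Juvenile 6d replicate 3 and 4.13 with library quality weights, and it was not called in either. bFtz-F1 (g4792.t1), a nuclear receptor expressed between pulses in insects, was at 1.09, 2.84 and 28.5 TPM at Juvenile 6d and at 6.58, 21.3 and 17.7 TPM at Juvenile 7d. Its Juvenile 6d replicate 3 was the highest of the 6 libraries and its replicate 1 the lowest.

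The last 3 factors of the list showed smaller spans at Juvenile 6d than HR3, E78 and bFtz-F1. At Juvenile 7d, E74 had the widest span of the 12 molting pathway transcripts, 4.72-fold. E74 (g10224.t1), an ETS-family transcription factor induced early in the insect cascade, was at 6.06, 31.7 and 16.1 TPM and then at 6.83, 14.3 and 32.2 TPM. E75 (g7221.t1), a nuclear receptor of the early response, was at 8.20, 15.5 and 25.4 TPM and then at 14.7, 19.8 and 27.6 TPM. The groups overlapped for both. HR4 (g2273.t1), a nuclear receptor of the later response, was at 3.78, 9.36 and 10.1 TPM and then at 7.42, 10.7 and 12.9 TPM, with a log2 fold change of 0.36 and an interval from -0.36 to 1.08.

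**Figure D4:**
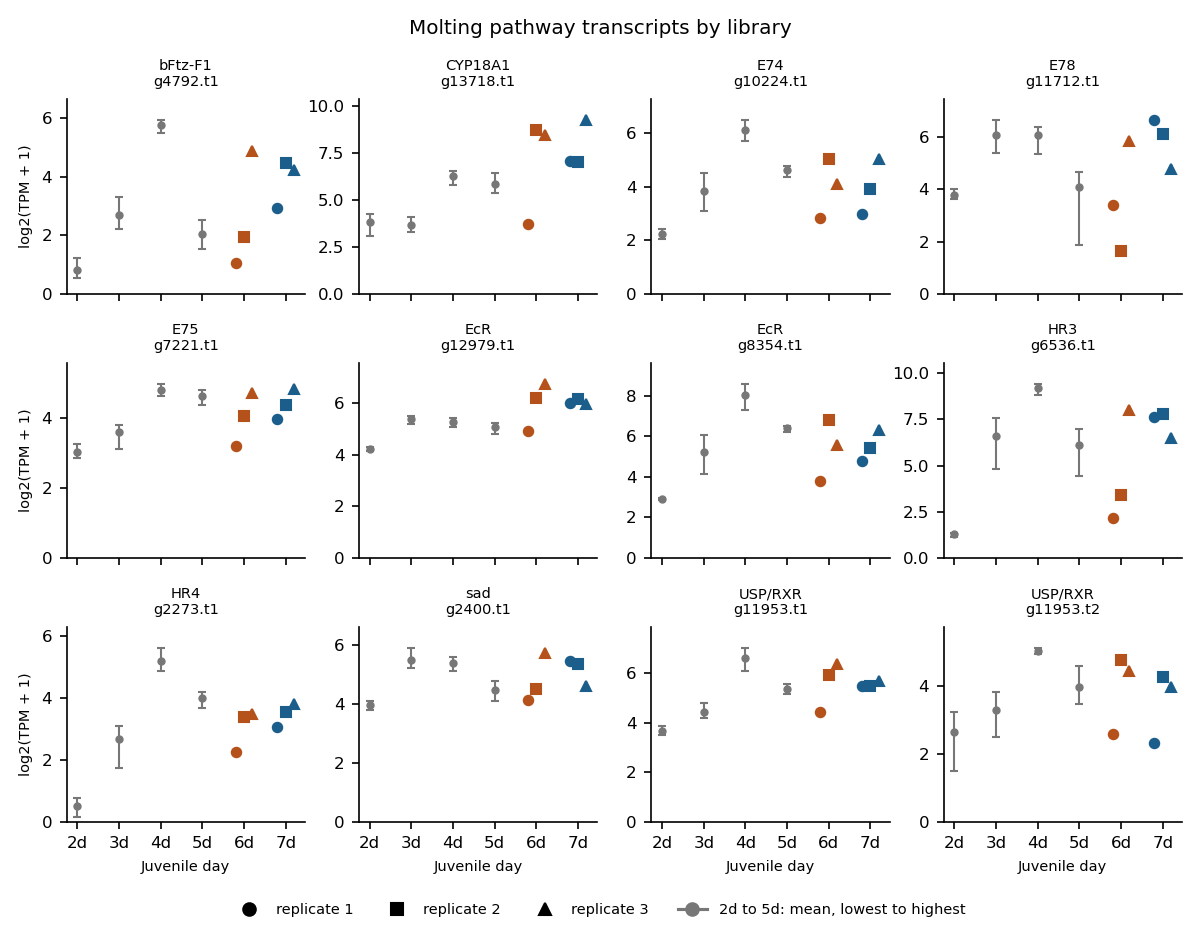
Level of the 12 molting pathway transcripts, as log2(TPM + 1), by day of the juvenile stage. Grey points are the means of Juvenile 2d to 5d with bars from the lowest to the highest of 3 libraries, and coloured symbols are the single libraries of Juvenile 6d (orange) and 7d (blue). The libraries of Juvenile 6d lie far apart for HR3, CYP18A1 and bFtz-F1, with replicate 1 the lowest of the 6 libraries in 10 of the 12 panels and replicate 3 at 254 TPM for HR3.

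The CAHS transcripts, the cytosolic tolerance proteins, were lower in most members by the estimate, but none was called. Of 15 members 12 were tested, with a median log2 fold change of -0.49, 2 above 0 and 10 below. The summed TPM was 37628, 24670 and 18772 in the libraries of Juvenile 6d and 12335, 12992 and 23367 in those of Juvenile 7d, so that Juvenile 7d replicate 3 lay among the libraries of Juvenile 6d. The median was -0.16 without Juvenile 6d replicate 1. It was -1.05 when Juvenile 7d replicate 3 was left out, where all 12 were below 0. The spread was wide on both days, and 5 members spanned more than 4-fold within Juvenile 6d and 4 within Juvenile 7d.

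The most abundant CAHS, g3884.t1, was at 10432, 16158 and 11494 TPM at Juvenile 6d and at 6458, 6111 and 15457 TPM at Juvenile 7d. Replicates 1 and 2 of Juvenile 7d lay below the whole of Juvenile 6d and replicate 3 inside it, with a log2 fold change of -0.58 and an interval from -1.75 to 0.59. When Juvenile 7d replicate 3 was left out it was -1.08, with an interval from -2.06 to -0.11 and an edgeR adjusted p of 0.89. A second, g5971.t1, was at 9024, 1489 and 654 TPM and then at 422, 617 and 274 TPM. Here the groups did not overlap, and the log2 fold change was -3.55, with an interval from -6.44 to -0.67 and an edgeR adjusted p of 0.9996. It was -1.22, with an interval from -2.54 to 0.10, once Juvenile 6d replicate 1 was left out.

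The next CAHS, g675.t1, was at 6816, 232 and 57.8 TPM at Juvenile 6d and at 426, 948 and 9.04 TPM at Juvenile 7d, a 118-fold range on the first day and a 105-fold range on the second. Its log2 fold change was -2.90 over all 6 libraries and 1.74 without Juvenile 6d replicate 1, so 1 library set its sign. The level in that library was near the Juvenile 2d mean of 6074 ± 220 TPM (SD, n = 3). For g5971.t1 the Juvenile 2d mean was 8810 ± 234 TPM, again near the 9024 TPM of Juvenile 6d replicate 1. Likewise g612.t1, chosen after its values were seen, was at 4167, 76.1 and 21.6 TPM at Juvenile 6d and at 39.2, 123 and 5.98 TPM at Juvenile 7d, with a Juvenile 2d mean of 5098 TPM. Not all members spread in this way: g791.t1, also chosen after its values were seen, stayed between 1236 and 1668.4 TPM in the 6 libraries, with a log2 fold change of 0.02.

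The SAHS transcripts, secreted tolerance proteins, were tested for 10 of 13 members, with a median log2 fold change of -0.80, 2 above 0 and 8 below, and 0 called. Leaving out Juvenile 6d replicate 1 gave a median of 0.12, and library quality weights gave 0.10. Leaving out Juvenile 7d replicate 3 gave -0.49, so the direction of the list rested on Juvenile 6d replicate 1. Juvenile 6d replicate 1 was the highest of the 6 libraries for 6 members and Juvenile 7d replicate 3 the lowest for 7. The summed TPM was 47834, 39219 and 23603 at Juvenile 6d and 47119, 45164 and 18570 at Juvenile 7d.

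The most abundant SAHS, g1671.t1, was at 23370, 16176 and 9094 TPM at Juvenile 6d and at 16453, 16026 and 6554 TPM at Juvenile 7d. The member g1669.t1 was at 10464, 5835 and 2587 TPM and then at 4514, 4514 and 1225 TPM. In both, replicate 3 was the lowest of each day and the groups overlapped. The member g1676.t1 was at 7643, 12096 and 8982 TPM at Juvenile 6d and at 22679, 21083 and 8626 TPM at Juvenile 7d. Replicates 1 and 2 of Juvenile 7d were the highest 2 of the 6 libraries, and the log2 fold change was 0.75, with an interval from -0.40 to 1.90. Without Juvenile 7d replicate 3 it was 1.11, with an interval from 0.23 to 1.98 and an edgeR adjusted p of 0.88.

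The other 3 tolerance genes were each represented by 1 transcript. Dsup (g4591.t1), which binds chromatin, was at 51.1, 104 and 115 TPM at Juvenile 6d and at 112, 111 and 111 TPM at Juvenile 7d. The 3 libraries of Juvenile 7d were within 1.01-fold of each other, and the log2 fold change was 0.24, with an interval from -0.37 to 0.85. MAHS (g6834.t1), the mitochondrial heat-soluble protein, was at 191, 1098 and 1012 TPM at Juvenile 6d and at 519, 498 and 1426 TPM at Juvenile 7d. Of these libraries, 5 lay above the highest value of Juvenile 2d to 5d, 281 TPM, and Juvenile 6d replicate 1 did not. Over all 6 libraries the log2 fold change was 0.09, and it was -0.93, with an interval from -1.39 to -0.48 and an edgeR adjusted p of 0.16, when Juvenile 6d replicate 1 and Juvenile 7d replicate 3 were left out. LEAM (g2978.t1) was at 426, 300 and 257 TPM and then at 238, 249 and 188 TPM. Its groups did not overlap, with a log2 fold change of -0.78 and an interval from -1.82 to 0.27, and without Juvenile 6d replicate 1 it was -0.23.

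**Figure D5:**
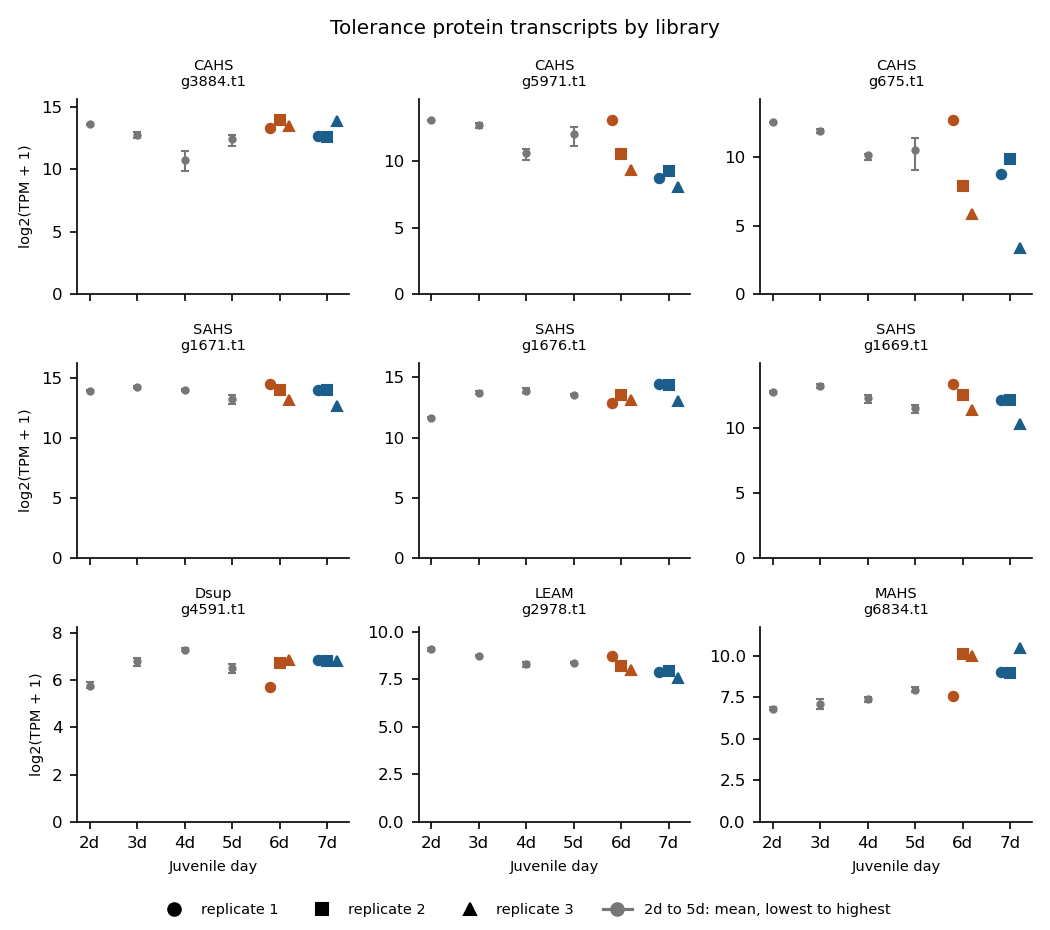
Level of 9 tolerance protein transcripts, as log2(TPM + 1), by day, drawn as in the plot of the molting pathway. Dsup at Juvenile 7d is the tightest group, at 111 to 112 TPM, and g675.t1 is the widest, from 9.04 to 6816 TPM over the 6 libraries.

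The 3 catalases, which break down hydrogen peroxide, had 0 calls. The libraries of 2 did not overlap between the days, 1 higher and 1 lower, beside 2.91% and 2.87% of all transcripts. The catalase g5941.t1 was at 0.55, 18.5 and 40.2 TPM at Juvenile 6d and at 54.2, 46.3 and 72.2 TPM at Juvenile 7d. All libraries of Juvenile 7d were higher, with a log2 fold change of 1.63 and an interval from -0.88 to 4.14. Without Juvenile 6d replicate 1, which stood 33.3-fold below the next library, it was 1.07, with an interval from 0.08 to 2.05 and an edgeR adjusted p of 0.9998. The catalase g4317.t1 was at 124, 103 and 78.4 TPM and then at 63.3, 67.1 and 57.0 TPM. All libraries of Juvenile 7d were lower, with a log2 fold change of -0.93 and an interval from -1.91 to 0.04. The third catalase, g3478.t1, was at 38.1, 32.9 and 50.2 TPM and then at 33.9, 40.0 and 33.4 TPM, with groups that overlapped. The summed TPM of the 3 stayed between 151 and 169 in the 6 libraries.

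The glutathione S-transferases (GST), which join glutathione to reactive compounds, were tested for 19 of 21 members. Their median log2 fold change was -0.47, with 2 above 0 and 17 below, and 0 were called. Without Juvenile 6d replicate 1, the highest library for 11 of the 19, the median was 0.02. The most abundant member, g4017.t1, was at 2762, 2860 and 2000 TPM at Juvenile 6d and at 2240, 2283 and 1904 TPM at Juvenile 7d. The member g10977.t1 was at 1420, 966 and 760 TPM and then at 1112, 1109 and 978 TPM. In both the groups overlapped and the interval of the log2 fold change spanned 0. The member g2973.t1 was at 1114, 383 and 350 TPM and then at 388, 406 and 314 TPM, with a log2 fold change of -1.08 over all libraries and 0.09 without Juvenile 6d replicate 1.

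The superoxide dismutases (SOD), which convert superoxide to hydrogen peroxide, were all tested. The 17 members had a median log2 fold change of -0.45, with 4 above 0 and 13 below, and 0 were called. The median was 0.19 without Juvenile 6d replicate 1. The members g11594.t1 and g457.t1 were the most abundant. The first was at 1317, 902 and 865 TPM at Juvenile 6d and at 1380, 1339 and 691 TPM at Juvenile 7d. The second was at 1294, 915 and 703 TPM and then at 1116, 1182 and 854 TPM. Neither separated the days, with log2 fold changes of -0.08 and -0.13. Without Juvenile 6d replicate 1 and Juvenile 7d replicate 3 these were 0.73 and 0.61. Their intervals then ran from 0.30 to 1.16 and from 0.035 to 1.18, with edgeR adjusted p of 0.19 and 0.29. The member g456.t1 was at 1317, 613 and 440 TPM and then at 408, 434 and 367 TPM, with groups that did not overlap, a log2 fold change of -1.29 and an interval from -2.78 to 0.20. The log2 fold change was -0.30 without Juvenile 6d replicate 1. The member g4645.t1, chosen after its values were seen, divided both days: it was at 12.2, 80.2 and 0.15 TPM at Juvenile 6d and at 0.12, 0.60 and 43.4 TPM at Juvenile 7d.

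The thioredoxins, small proteins that reduce disulfides, had a median log2 fold change of -0.09 over 14 members, with 3 above 0, 11 below and 0 called. The median turned to 0.16 without Juvenile 6d replicate 1, with 10 above 0 and 4 below, and to 0.08 both with library quality weights and with limma on log2(TPM + 1), where that of all transcripts was -0.01 and 0.10. The member g11519.t1 was at 1319, 311 and 163 TPM at Juvenile 6d and at 395, 357 and 123 TPM at Juvenile 7d. Juvenile 6d replicate 1 was again near the Juvenile 2d mean, 1414 ± 88 TPM (SD, n = 3), and the log2 fold change was -1.42 with it and 0.42 without it. Other named transcripts were not near that mean in this library. SAHS g1671.t1 was at 23370 TPM against a Juvenile 2d mean of 15668 TPM, and SOD g456.t1 at 1317 against 2431 TPM. GST g2973.t1 was at 1114 against 1842 TPM. The member g11522.t1 was at 516, 377 and 343 TPM and then at 593, 518 and 264 TPM. Its log2 fold change was -0.06, and it was 0.74 without Juvenile 6d replicate 1 and Juvenile 7d replicate 3. The second value had an interval from 0.26 to 1.21 and an edgeR adjusted p of 0.21. The member g6863.t1 was at 51.8, 161 and 235 TPM and then at 168, 147 and 361 TPM. Both had groups that overlapped.

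The HOX list holds homeobox transcription factors that pattern the body axis. All 8 were tested, with a median log2 fold change of 0.09, 6 above 0, 2 below and 0 called. Without Juvenile 6d replicate 1, which was the lowest library in TPM for all 8, the median was -0.10. Hox4_disformed (g2153.t1) was at 7.57, 35.8 and 47.0 TPM at Juvenile 6d and at 23.9, 24.9 and 44.2 TPM at Juvenile 7d. The segment polarity gene engrailed (g10006.t1) was at 10.8, 37.9 and 34.8 TPM and then at 18.8, 18.7 and 49.6 TPM. Without Juvenile 6d replicate 1 and Juvenile 7d replicate 3, the log2 fold change was -0.65 for Hox4_disformed and -0.85 for engrailed. The intervals ran from -1.08 to -0.22 and from -1.43 to -0.27, with an edgeR adjusted p of 0.21 for each. For both genes the libraries other than Juvenile 6d replicate 1 lay above the means of Juvenile 2d to 5d, which were at most 14.9 TPM for the first and 17.5 TPM for the second. The highest single library of those days was at 16.7 TPM for Hox4_disformed and 20.8 TPM for engrailed. Juvenile 7d replicates 1 and 2 thus lay within the earlier range for engrailed. Hox10_abdb-1 (g6414.t1) was at 15.4, 24.7 and 31.9 TPM and then at 29.6, 28.1 and 29.5 TPM.

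Of the argonautes, which carry small RNAs to their targets, 4 of 7 were tested, all 4 with a log2 fold change below 0 and 0 called. The argonaute-2 transcript g4269.t1 was the steadiest of the transcripts described one by one. It was at 10.1, 10.9 and 11.1 TPM at Juvenile 6d and at 11.4, 11.0 and 10.9 TPM at Juvenile 7d, with a log2 fold change of -0.11 and an interval from -0.67 to 0.46. The argonaute-1 transcript g11139.t1 was at 40.4, 60.2 and 44.6 TPM and then at 45.7, 55.2 and 19.9 TPM, with Juvenile 7d replicate 3 the lowest of all. The other argonaute-1 transcript, g3665.t1, was at 4.05, 5.45 and 7.30 TPM and then at 4.12, 6.91 and 4.00 TPM.

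The transcripts in no list with the smallest p-values and a mean above 10 TPM separated the days without reaching a call in edgeR. The transcript g4753.t1 was at 30.8, 53.3 and 49.2 TPM at Juvenile 6d and at 101, 104 and 92.0 TPM at Juvenile 7d, with a log2 fold change of 1.06 and an interval from 0.58 to 1.54. Its estimated counts were not whole numbers in any of the 6 libraries, so reads were divided between similar sequences. How far the step of g4753.t1 depends on this division was not tested. The transcript g6051.t1 was at 7.77, 13.2 and 8.26 TPM and then at 36.5, 34.0 and 33.6 TPM, with a log2 fold change of 1.68 and an interval from 0.75 to 2.62. In both the libraries of Juvenile 7d were all higher and lay close together. They were chosen for their small p-values, so the intervals describe them and support nothing.

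Among the lower transcripts, g2943.t1 was at 135, 232 and 188 TPM at Juvenile 6d and at 80.0, 80.7 and 97.4 TPM at Juvenile 7d. Its log2 fold change was -1.22, with an interval from -1.85 to -0.59 and an edgeR adjusted p of 0.9996, and it was the 1 transcript that DESeq2 called, with an adjusted p of 0.011. The transcript g11646.t1 was at 80.1, 212 and 333 TPM and then at 46.6, 75.2 and 64.5 TPM, with a log2 fold change of -1.76 and an interval from -2.74 to -0.78. The 4 log2 fold changes without Juvenile 6d replicate 1 were 1.03, 1.75, -1.22 and -2.04 for g4753.t1, g6051.t1, g2943.t1 and g11646.t1. All 4 were chosen for small p-values in these same 6 libraries, which favours transcripts whose libraries agree within a day. The values without that library therefore give no further support. The sources used here give no name for these 4 transcripts.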

How the data were processed

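The authors sequenced the cDNA libraries as single-end reads, quantified them with kallisto on predicted coding sequences and deposited estimated counts for each library without normalization. The authors also deposited TPM, which kallisto derives from the estimated counts and effective lengths, for each library and as a matrix. Both held the same values, with a largest difference of 0. The processing notes of the submitters name kallisto 0.42.4 and 0.44.0. Of the sequence lengths, 99.6% were multiples of 3, so they are coding lengths. Each value column belonged to a labelled library, and 0 columns had none.

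For the 6 libraries of Juvenile 6d and 7d, edgeR 4.0.16 (R 4.3.3) was run on the deposited estimated counts after rounding (filterByExpr with a minimum count of 10, TMM, quasi-likelihood F test, day as the only term), with p-values adjusted by the Benjamini-Hochberg method over all transcripts tested and called at 0.05. Standard errors were taken from the log2 fold change and F. DESeq2 1.42.0 and limma 3.58.1 were alternatives. Python 3.11.15 (numpy 2.4.6, pandas 2.3.3, matplotlib 3.10.9) served for figures, distances, correlations and exact permutation tests, over transcripts with a mean above 1 TPM and with a pseudocount of 1. The edgeR steps were tested on simulated data. Alternatives were other normalizations, filters, tools and sample sets, thinning to the smallest total, and leaving out each library.

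The lists are those of the study, and the comparison, lists and tests were chosen with earlier results of these data known. The text names each of the 12 molting pathway transcripts, the 3 catalases, Dsup, LEAM and MAHS, the 3 members with the highest mean TPM in each other list, and of the transcripts in no list with a mean above 10 TPM the 2 higher and 2 lower with the smallest p in edgeR, since edgeR called none. Members named outside this rule are marked as chosen after their values were seen. The reference gene table matched 0 of the transcript identifiers, so no positions or sequences are given.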

Additional observations from a re-analysis of the deposited data

How the results depend on the processing

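Every fit by edgeR, limma or limma with voom called 0 transcripts, and DESeq2 called 1, which was lower at Juvenile 7d. For the 12 lists, 0 members were called in all 216 counts under the alternatives. Transcripts with an unadjusted p under 0.05 numbered 186 as reported, between 75 and 619 when 1 library was left out (the lowest when Juvenile 7d replicate 1 was dropped, the highest when Juvenile 6d replicate 3 was, and 527 when Juvenile 7d replicate 3 was), 1059 in a fit of all 18 libraries, 1978 with library quality weights, which gave 0.18 to Juvenile 6d replicate 1 and 0.35 to Juvenile 7d replicate 3, and 1590 without these 2 libraries. With the replicate number as a block there were 151, and 0 were called. The deviations of same-numbered libraries from the mean of their day correlated at 0.18, -0.27 and -0.05 (r). With 3 libraries a day these values are tied to each other, so they cannot show whether the numbers pair samples. Depth limits Juvenile 7d replicate 3 most, and thinning all libraries to its total gave 176.

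The count of transcripts whose libraries do not overlap, 564 of 9768 over both directions, lay between 863 and 5075 with libraries left out. Leaving out any of the 6 raised it. A transcript that does not overlap with all 6 libraries cannot overlap with fewer, so the count could only stay or rise. Counts with fewer libraries have fewer values to separate, so they are not on one scale with 564. The difference between the distances between and within days lay between -0.11 and 0.11 with libraries left out.

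Of 812 log2 fold changes of the 43 named transcripts under the alternatives, 731 kept their sign and their side of the threshold, 80 changed sign and 1, g2943.t1 in DESeq2, passed the threshold. None of those that changed sign was called, and the cause was not tested. The limma fits of TPM, which have no TMM factor, moved the median of all transcripts from -0.01 to 0.10 with a pseudocount of 1 and to 0.12 with 0.1. There the values (pseudocounts 1 and 0.1) were 0.086 and 0.094 for engrailed, 0.0034 and 0.0073 for E74, 0.087 and 0.092 for EcR g12979.t1, 0.10 and 0.12 for EcR g8354.t1, 0.070 and 0.070 for GST g10977.t1, 0.10 and 0.10 for SOD g11594.t1, 0.15 and 0.15 for SOD g457.t1, 0.094 and 0.094 for thioredoxin g11522.t1, and 0.048 and 0.052 for argonaute g4269.t1. With library quality weights they were -0.45 for Hox4_disformed, -1.17 for CYP18A1, -0.0070 for HR4, 0.039 for catalase g3478.t1, 0.28 for g10977.t1, 0.017 for GST g2973.t1, 0.55 for g11594.t1, 0.39 for g457.t1, 0.35 for thioredoxin g11519.t1, 0.55 for g11522.t1, 0.079 for g4269.t1, 1.14 for CAHS g675.t1, -0.80 for MAHS and 0.11 for SAHS g1671.t1. The block gave 0.012 for g457.t1 and thinning 0.032 for g11522.t1. The block also raised HR3 from 1.05 to 3.39 and E78 from 1.54 to 2.43, and quality weights raised HR3 to 3.45, none of them called.

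With libraries left out, log2 fold changes that changed sign lay from -0.65 to 0.41 for Hox4_disformed, -0.85 to 0.24 for engrailed, -0.032 to 2.78 for bFtz-F1, -1.44 to 0.77 for CYP18A1, -1.10 to 0.55 for E74, -0.13 to 0.59 for E75, -0.37 to 0.20 for EcR g12979.t1, -1.14 to 0.64 for EcR g8354.t1, -0.58 to 0.052 for USP/RXR g11953.t1, -0.50 to 0.47 for g10977.t1, -1.44 to 0.22 for g2973.t1, -0.29 to 0.73 for g11594.t1, -0.40 to 0.61 for g457.t1, -1.88 to 0.76 for g11519.t1, -0.32 to 0.74 for g11522.t1, -0.20 to 0.94 for thioredoxin g6863.t1, -0.66 to 0.042 for argonaute g11139.t1, -0.20 to 0.13 for g4269.t1, -3.91 to 2.30 for g675.t1, -0.93 to 0.43 for MAHS, -0.93 to 0.46 for g1671.t1 and -1.60 to 0.19 for SAHS g1669.t1.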
